A study of Drosophila melanogaster with 16 samples.

Results

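The mitochondrial ribosomal protein genes are the nuclear genes that encode the proteins of the ribosome inside mitochondria. They were chosen by name: every probe whose gene symbol in the array's platform annotation begins with mRpL (large subunit) or mRpS (small subunit). The rule matched 70 probes, of which 2 carried 2 gene symbols each and were left out. The remaining 68 genes, 43 of the large and 25 of the small subunit, had 1 probe each, among 16580 genes and unnamed probes on the array, of which 11980 were named genes.

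Mitochondria keep a small genome of their own, and a dedicated ribosome translates its few messenger RNAs into core subunits of the respiratory chain. All the proteins of that ribosome are encoded in the nucleus, made in the cytosol and imported. Many have a counterpart in the bacterial ribosome, and others are found only in mitochondria. The subunits are given here as the symbols give them, although the mammalian counterparts of mRpS18A and mRpS30 sit in the large subunit.

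The study activated the receptor Notch in 2 Drosophila lines, DmD8 and Kc, with EDTA, which binds divalent metal ions, given at 2 mM for 30 minutes. In Kc the comparison cells had PBS, the buffer, alone. In DmD8 the comparison RNA came from cells in PBS alone by one set of labels, and by another from cells that also had EDTA, after a night in 300 µM DFK-167, which blocks the presenilin protease acting on Notch. The 5 arrays of each DmD8 experiment were deposited with the same values (71019 pairs of values, 24 of them not identical, by at most 4.87e-08), so the 16 arrays were 11 distinct ones and the comparison RNA of DmD8 is unsettled.

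Each DmD8 array was therefore counted once, which gave 5 DmD8 arrays and 6 Kc arrays. Activated RNA was in Cy5 on arrays 1 to 3 of each line, and the dyes were swapped on arrays 4 and 5 of DmD8 and arrays 4 to 6 of Kc. The labels give 3 biological replicates per experiment, and the swaps were read as repeats of them, so that the standard errors and p-values below, taken over arrays, are too small. EDTA was the only means of activation, so Notch activation and other effects of EDTA cannot be told apart. The arrays give only ratios of 2 RNAs of 1 line, so neither the identity of the lines nor the level of any gene could be checked from markers.

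Array medians over all probes lay between -0.13 and 0.16, and 13353 to 15638 of 17258 probes had a value per array. Values are log ratios of activated over comparison RNA, taken as log2. No source used here states the base, so no fold is printed. The direction is likely rather than settled: it rests on the labelled dyes and E(spl)m3-HLH, a known Notch target, which lay above 0 on 5 of 5 DmD8 arrays (0.33 to 1.80) and on 6 of 6 Kc arrays (3.92 to 4.55).

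After 30 minutes of EDTA the mitochondrial ribosomal protein genes stayed close to the comparison RNA in both lines. In DmD8, 2 of the 67 members that could be tested passed the threshold, mRpL9 (0.31 ± 0.08, standard error) and mRpL28 (-0.56 ± 0.10). In Kc, 2 of 67 passed it, mRpS9 (0.23 ± 0.07) and mRpL41 (-0.25 ± 0.07). The group as a whole lay slightly to one side of the other genes, and to opposite sides in the 2 lines: the median member stood at 0.05 in DmD8 and at -0.10 in Kc, and the median of all 12952 tested features at -0.04 and 0.01 in the same lines. A ratio of bulk RNA does not tell fewer cells of a type from less of a transcript per cell.

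The threshold was an adjusted p under 0.05 in limma, fitted across all features each line having a mean and a dye term, with Benjamini-Hochberg adjustment. The 2 called members were 2.99% of those tested in each line. Among all features 7.24% were called in DmD8 (3.08% higher and 4.16% lower) and 11.9% in Kc (7.1% higher and 4.81% lower), so the members' share was below the background in both. With each array centred on its median the calls were 5 higher and 1 lower in DmD8, and 0 higher and 1 lower in Kc. The members' share was then 8.96% in DmD8, above the 7.16% of all features, and 1.49% in Kc, below the 11.3% of all features. No call held when swaps were averaged with replicates under all 36 possible pairings. Few calls held there among all 12952 features, 16 higher and 48 lower in DmD8 and 147 and 91 in Kc. At an unadjusted p under 0.05 there were 7 higher and 1 lower member in DmD8, and 1 higher and 10 lower in Kc. The members at that level were 11.9% in DmD8 and 16.4% in Kc, against 19.7% and 24.6% of all features.

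The members were also less spread than other features. The middle 50% of members spanned 0.14 in DmD8 and 0.14 in Kc, against 0.24 and 0.22 for all features. Their standard errors were also smaller, with medians of 0.083 in DmD8 and 0.074 in Kc, against 0.104 and 0.093. How far this accounts for the narrower spread was not tested. Of the members that were not called, 62 of 65 in DmD8 and 65 of 65 in Kc had a 95% interval that lay wholly within 0.5 of 0. The widest upper bound in DmD8 was that of mRpS30, at 0.67. These intervals are too narrow, since the standard errors over arrays are too small. Fitted means within 0.5 of 0 were common among all features too. They were 98.5% of members and 96.5% of all features in DmD8, and 100% and 95.6% in Kc.

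**Figure D1:**
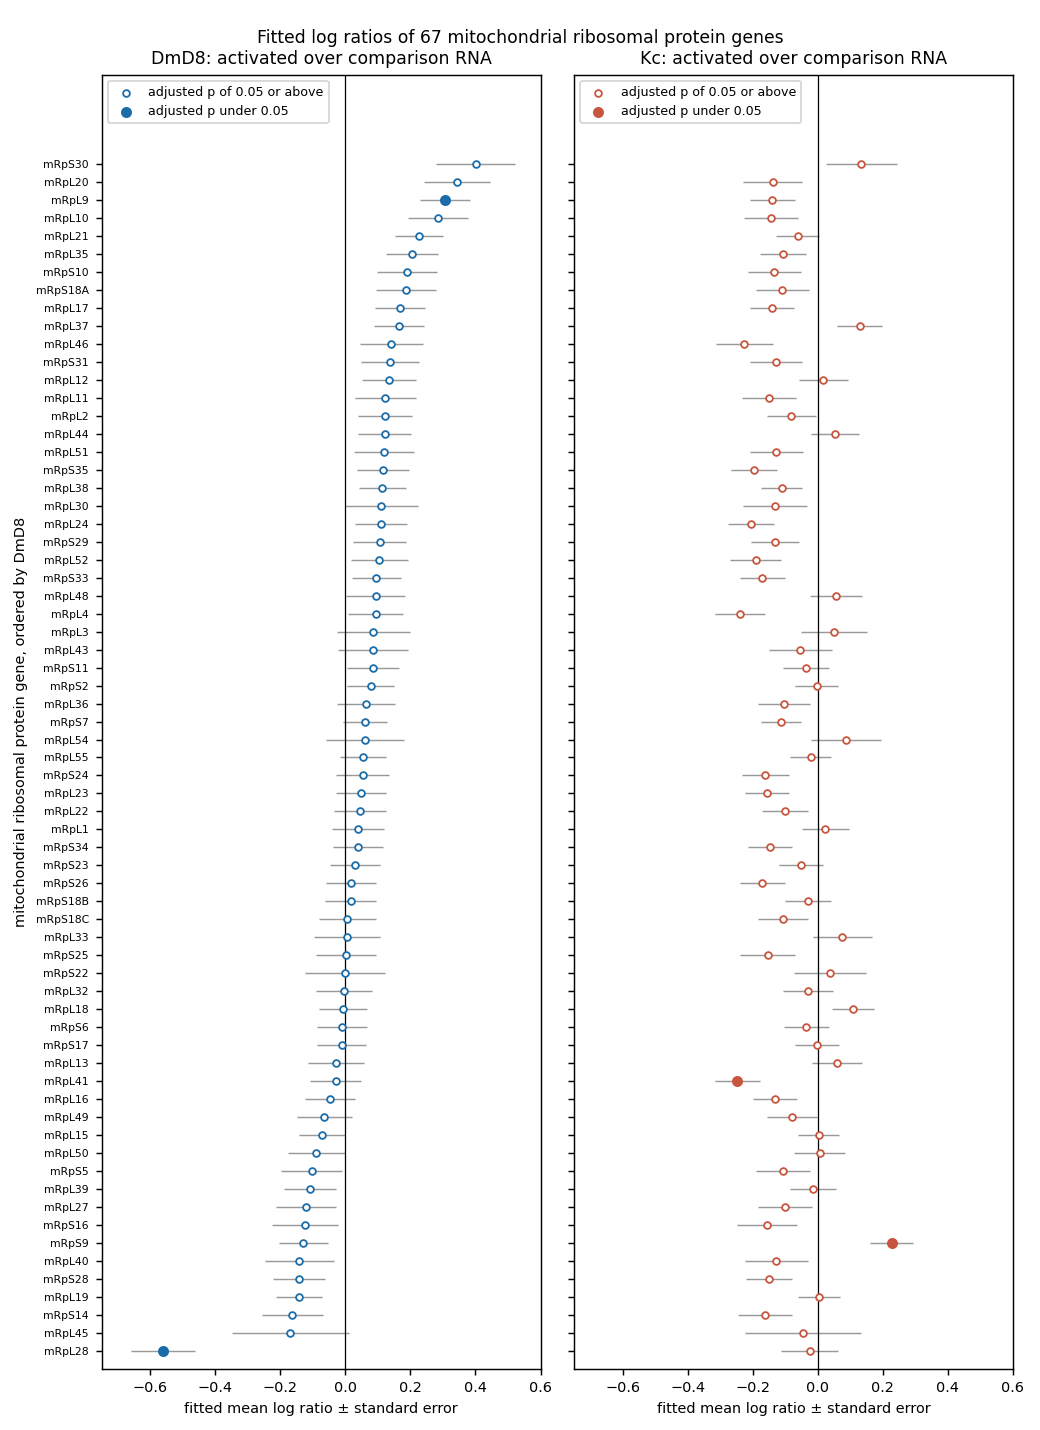
Fitted mean log ratio (x axis, activated over comparison RNA, log2 scale assumed) with its standard error for each of 67 mitochondrial ribosomal protein genes (y axis), ordered by their DmD8 value, in DmD8 (left) and Kc (right). Filled points mark the 2 genes past the threshold in each line, mRpL9 and mRpL28 in DmD8 and mRpS9 and mRpL41 in Kc; most other points lie right of 0 in DmD8 and left of 0 in Kc.

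Of the large subunit, mRpL28, the counterpart of a bacterial protein of the same subunit, was the member farthest from 0 in either line. Its log ratios on the 5 DmD8 arrays were -1.0, -0.86, -0.29, -0.30 and -0.51. It lay below 0 on every DmD8 array, with the lowest values on arrays 1 and 2. Its fitted mean in DmD8 fell to -0.56 ± 0.10 (limma adjusted p = 0.00466).

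In Kc the values of mRpL28 ran from -0.35 to 0.28 with a median of -0.04 over 6 arrays. They were below 0 where activated RNA was in Cy5 (3 arrays) and above 0 on the 3 swaps, so no direction held in Kc. The DmD8 call was kept in all 11 fits that left out 1 array, with adjusted p-values from 0.000503 to 0.0476. Leaving out an array of the other line leaves the mean of a line as it is. Such a fit changes only the variance estimate shared by the lines and the features tested. The DmD8 call of mRpL28 was lost when swaps were averaged with the replicates they may repeat (largest adjusted p over 36 pairings 0.180).

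mRpL9, whose bacterial counterpart also belongs to the large subunit, was the called member that rose in DmD8. Its DmD8 log ratios were 0.55, 0.37, 0.45, 0.07 and 0.24, and the fitted mean was 0.31 ± 0.08 (limma adjusted p = 0.0337). Every DmD8 array lay above 0, the swaps (0.07 and 0.24) below the 3 others. In Kc mRpL9 ran from -0.45 to 0.14 with a median of -0.19, and 2 of 6 arrays lay above 0, so the lines overlapped at the low end of DmD8. The DmD8 call was kept in 5 of 11 fits without 1 array, and the largest adjusted p was 0.181. All the fits that kept it left out a Kc array. Without any 1 DmD8 array, 0 members were called higher in DmD8.

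Of the other DmD8 members near the top by fitted mean, none passed the threshold, although mRpS30 and mRpL20 stood above mRpL9. mRpS30, the highest member, averaged 0.40 ± 0.12 (limma adjusted p = 0.0755), from arrays at 0.34, 0.93, 0.60, 0.05 and 0.30. All 5 lay above 0, with array 2 highest and the first swap near 0. mRpL20, whose bacterial counterpart acts early in the assembly of the large subunit, stood at 0.34 ± 0.10 (limma adjusted p = 0.0672), and mRpL10, counterpart of the bacterial protein at the base of the ribosomal stalk, at 0.29 ± 0.09 (limma adjusted p = 0.0999).

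mRpL21 stood at 0.23 in DmD8. The members at the low end after mRpL28 were mRpL45 (-0.17, from 3 arrays), mRpS14 (-0.16), mRpL19 (-0.14) and mRpS28 (-0.14), none of them past the threshold. In mammals the counterpart of mRpL45 lies at the exit of the tunnel through which new proteins leave the ribosome. In DmD8, 5 members lay above 0 on every array they had a value on, and 2 lay below 0 on every array. These were 7.46% and 2.99% of the members, against 4.39% and 10.2% of all features.

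In Kc, mRpS9 was the member with the highest fitted mean. Its bacterial counterpart sits in the head of the small subunit and reaches the tRNA site. Its Kc log ratios ran from -0.10 to 0.51 with a median of 0.23 over 6 arrays. The 3 arrays with activated RNA in Cy5 were the highest (0.44, 0.51 and 0.37), and the swaps lay at 0.09, 0.06 and -0.10.

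The fitted Kc mean of mRpS9 was 0.23 ± 0.07 (limma adjusted p = 0.0471), and the call was kept in 1 of 11 fits without 1 array. That fit left out DmD8 array 2. Without any 1 Kc array, 0 members were called higher in Kc. In DmD8 the arrays of mRpS9 stood at 0.35, 0.04 and 0.36 with activated RNA in Cy5 and at -0.49 and -0.52 on the swaps. The DmD8 arrays of mRpS9 thus changed sign with the dye.

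mRpL41, a large-subunit protein found only in mitochondria, fell in Kc. Its 6 Kc values ran from -0.50 to -0.10 with a median of -0.21, and the fitted mean was -0.25 ± 0.07 (limma adjusted p = 0.0393). All 6 lay below 0, in both dye orientations, with array 1 lowest. In DmD8 mRpL41 was at -0.25, -0.22 and -0.11 with activated RNA in Cy5 and at 0.14 and 0.13 on the swaps, so the lines overlapped. The Kc call was kept in 6 of 11 fits without 1 array. Of the fits without a Kc array, it was lost in those without array 1, 4 or 5.

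Among the members that did not pass the threshold in Kc, mRpL4 and mRpL24, whose bacterial counterparts lie along the exit tunnel, stood at -0.24 and -0.21. mRpL46 stood at -0.23 and mRpS35, a small-subunit protein of mitochondria only, at -0.20. The highest after mRpS9 were mRpS30 (0.13), mRpL37 (0.13), mRpL18 (0.11) and mRpL54 (0.09). In Kc 7 members, 10.4%, lay below 0 on every array, against 5.14% of all features, and 0 lay above 0 on every array, against 7.67% of all features.

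**Figure D2:**
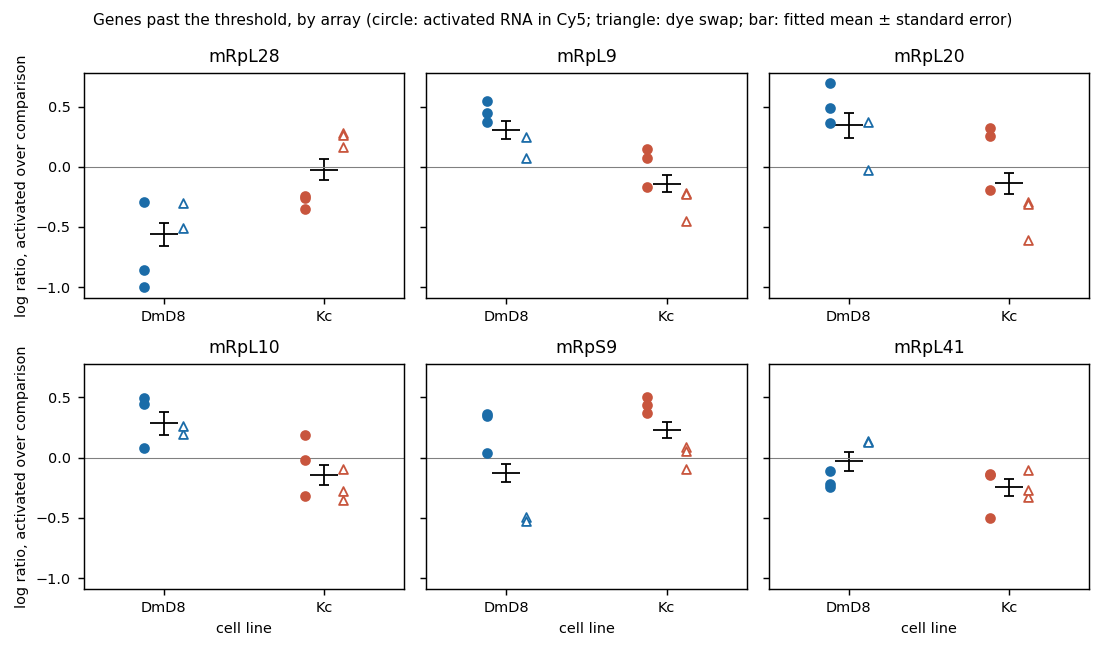
Log ratio on each array (y axis, activated over comparison RNA) in DmD8 and Kc (x axis) for the 6 genes past the threshold in a line or in the difference between lines. Circles are arrays with activated RNA in Cy5, triangles are dye swaps, and the bar is the fitted mean ± its standard error; mRpL28 and mRpL9 keep their sign on every DmD8 array and mRpL41 on every Kc array, whereas mRpS9 changes sign with the dye in DmD8.

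The slight displacement of the group was seen array by array, and its size differed between dye orientations. On the 5 DmD8 arrays the median member stood above the median of all tested features. The difference was 0.22, 0.11 and 0.11 with activated RNA in Cy5 and 0.02 and 0.07 on the swaps, a mean of 0.11 ± 0.07 (SD, n = 5 arrays). On the Kc arrays it was -0.13, 0.03 and -0.04 with activated RNA in Cy5 and -0.24, -0.16 and -0.21 on the swaps, a mean of -0.13 ± 0.10 (SD, n = 6 arrays). With the Cy5 arrays alone the median member stood at 0.06 in DmD8 and -0.06 in Kc, against -0.08 and -0.02 for all features. All DmD8 arrays lay above 0 and all Kc arrays but array 2 below it. No test of the group was made, because its genes are not replicates and the members were chosen with earlier results of these data known.

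By sign, 45 of 67 members (67.2%) had a fitted mean above 0 in DmD8, against 41.6% of all features. In Kc 51 of 67 (76.1%) were below 0, against 47% of all features. Both signs together, above 0 in DmD8 and below 0 in Kc, were found for 36 members (53.7%), against 21.7% of all features. This joint count largely follows from the shares of each sign above and is not a separate contrast. With each array centred on its median, 52 of 67 members were above 0 in DmD8 and 55 below 0 in Kc. On arrays with activated RNA in Cy5 alone these counts were lower, 41 of 66 and 40 of 66. With the sign of the swaps turned they were 36 and 32 of 67.

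**Figure D3:**
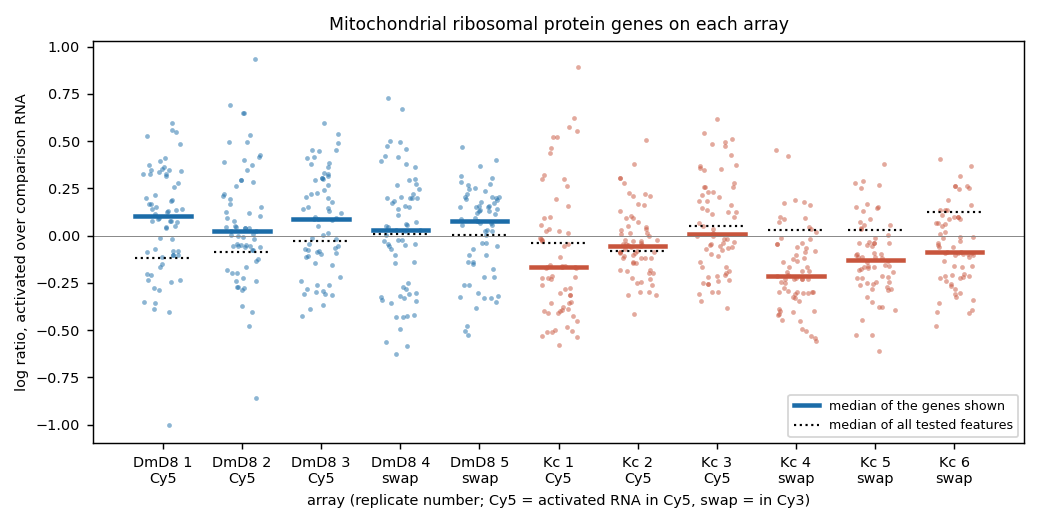
Log ratio of each mitochondrial ribosomal protein gene (points; y axis, activated over comparison RNA) on the 5 DmD8 and 6 Kc arrays (x axis, with dye orientation). The thick bar is the median of these genes and the dotted line the median of all tested features; the bar lies above the line on every DmD8 array and below it on every Kc array except Kc 2.

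Heat shock genes set Kc arrays 2 and 5 apart: the 13 tested genes of the heat shock list summed to 8.09 and 6.99 there, against -0.86 to 0.53 on the other Kc arrays. On these arrays the median member stood at -0.05 and -0.13, within the range of the other Kc arrays (-0.22 to 0.01). Without both arrays 0 of 67 members were called in Kc, where 537 of 12473 features were called higher and 281 lower. In that fit 8 members had an unadjusted p under 0.05 in Kc, and 52 of 67 had a fitted Kc mean below 0. Of 5 tested muscle progenitor markers, 3 rose in DmD8 (Him, twi and kirre) and 1 in Kc (zfh1), and of 4 tested blood cell markers, 0 passed the threshold in DmD8, where 1 had an unadjusted p under 0.05, and 3 rose in Kc (srp, ush and Hml). Among all features 3.08% were called higher in DmD8 and 7.1% in Kc. The part of the heat shock genes and markers in the members' values was not tested.

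The subunits and classes of protein lay close together. The large subunit's median was 0.07 in DmD8 and -0.08 in Kc, and the small subunit's was 0.03 and -0.11. Of the large subunit 28 of 42 tested members lay above 0 in DmD8 and 13 of 42 in Kc, and of the small subunit 17 of 25 and 3 of 25. A class taken to have bacterial counterparts held the mRpL genes numbered up to 36, the mRpS genes up to 21, mRpS24 and mRpL55, the last of which may not belong there. Its medians were 0.05 in DmD8 and -0.10 in Kc (41 genes), and those of the other members 0.07 and -0.12 (26 genes). No test was made between these classes.

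The difference between the lines, DmD8 minus Kc, was tested in the same fit. It passed the threshold for 5 of 67 members (7.46%), against 10.9% of all features (4.42% higher and 6.51% lower). The 3 that were higher in DmD8 than in Kc were mRpL20 (0.48, limma adjusted p = 0.0421), mRpL9 (0.45, limma adjusted p = 0.0182) and mRpL10 (0.43, limma adjusted p = 0.0485), all of the large subunit. The 2 that were lower in DmD8 than in Kc were mRpL28 (-0.54, limma adjusted p = 0.0231) and mRpS9 (-0.36, limma adjusted p = 0.0417). With centred arrays 8 were higher and 1 lower, 13.4% of the members, above the 10.8% of all features.

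mRpL20 stood at 0.36, 0.69, 0.49, -0.03 and 0.37 on the DmD8 arrays, and between -0.61 and 0.32 with a median of -0.25 on the Kc arrays. mRpL10 stood at 0.08, 0.49, 0.45, 0.20 and 0.27 on the DmD8 arrays, and between -0.35 and 0.19 with a median of -0.19 on the Kc arrays. For each gene 1 DmD8 array lay below the highest Kc array, array 4 for mRpL20 and array 1 for mRpL10. No member had all DmD8 arrays above, or all below, all Kc arrays, which held for 2.06% and 4.11% of all features.

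Of the 5 differences, those of mRpL9 and mRpL28 were kept in 10 and 9 of 11 fits without 1 array, and those of mRpL20, mRpL10 and mRpS9 in 3, 2 and 2. All 5 were lost when swaps were averaged with replicates, with largest adjusted p-values over the pairings from 0.260 (mRpL28 and mRpL9) to 0.358 (mRpS9). Of all 12952 features, 14 higher and 86 lower differences held over the pairings. At an unadjusted p under 0.05, 16 members were higher in DmD8 than in Kc and 2 lower, 26.9% of the members in all, against 24.9% of all features. The fitted difference was above 0 for 51 of 67 members (76.1%), against 42.5% of all features, and its median was 0.12, against -0.06. For 46 of the 62 members with no called difference the 95% interval of the difference lay within 0.5 of 0. These intervals too are narrower than they should be, as they rest on standard errors over arrays.

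Across the 67 members the fitted means of DmD8 and Kc correlated at -0.11 (Pearson), and across all features at -0.00315. The points share the probes and the platform, and the value is a description across genes.

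The part of each log ratio that differed between dye orientations is given as the dye term, the amount by which Cy5 arrays lie above, and swaps below, the midpoint of the orientations. It passed the threshold for 12 of 67 members in DmD8 (17.9%) and 12 of 67 in Kc (17.9%), against 17.1% and 20% of all features. In both lines it passed for 7 members, mRpL12, mRpL15, mRpL18, mRpL48, mRpS18B, mRpS7 and mRpS9.

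mRpL12, counterpart of the bacterial stalk protein that mRpL10's counterpart anchors, shows the pattern. With activated RNA in Cy5 it stood at 0.32, 0.50 and 0.39 in DmD8 and at 0.46, 0.22 and 0.49 in Kc. On the swaps it stood at -0.34 and 0.08 in DmD8 and at -0.31, -0.29 and -0.48 in Kc. In both lines every swap lay below every array with activated RNA in Cy5.

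Across the 67 members the dye terms of DmD8 and Kc correlated at 0.83 (Pearson), and across all 12952 features at 0.75. The 2 terms had the same sign for 52 of 67 members. These points share the probes, the dyes and the platform, and genes are not independent replicates. The mean over orientations is what the results above use, and it takes the swaps as already turned by the authors. The Notch target E(spl)m3-HLH stood at 4.30, 4.11 and 3.92 on the Kc arrays with activated RNA in Cy5. On the Kc swaps it stood at 4.55, 4.05 and 4.10. In DmD8 it stood at 1.31, 0.87 and 0.33 with activated RNA in Cy5 and at 1.80 and 1.49 on the swaps. Had the swaps not been turned, the response of this gene would be of opposite sign on the swaps. The dye term would then be the response, with 8 higher and 4 lower members in DmD8 (7.67% and 9.4% of all features). In Kc there would be 11 higher and 1 lower (7.06% and 13% of all features).

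**Figure D4:**
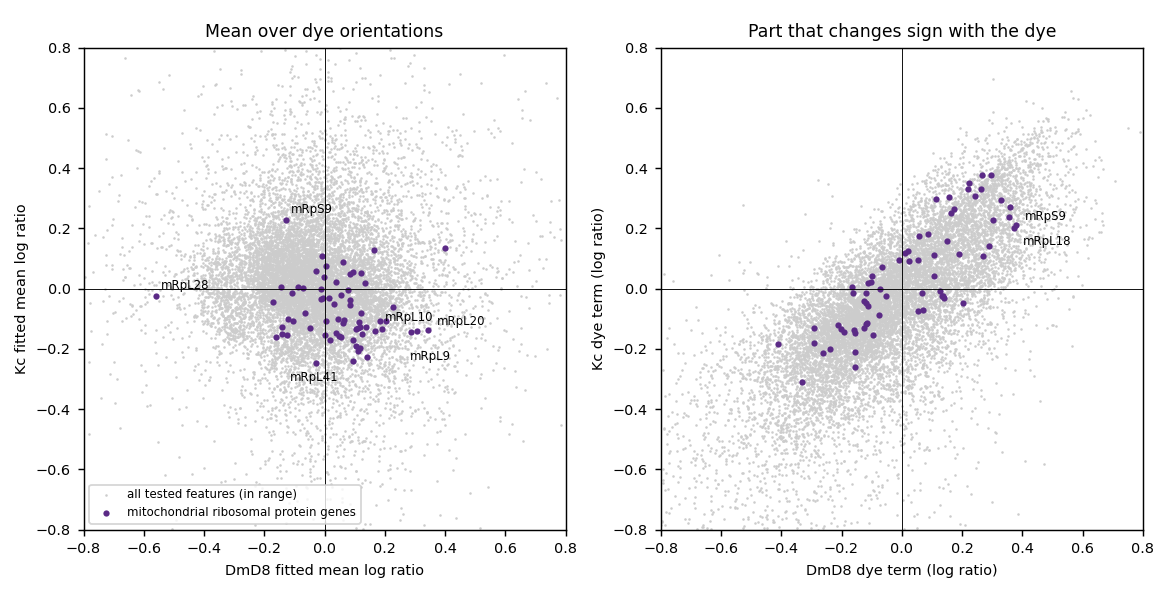
Kc against DmD8 for each of 67 mitochondrial ribosomal protein genes (purple) and all tested features (grey): the fitted mean log ratio over dye orientations (left) and the dye term (right). The purple points form no line in the left plot (Pearson r -0.11) and rise together in the right plot (0.83); features beyond 0.8 are out of range.

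Other genes of mitochondrial gene expression were read from lists defined by function. The counts below stand against all features, of which 3.08% were called higher and 4.16% lower in DmD8. In Kc 7.1% of all features were called higher and 4.81% lower. Of 10 mitochondrial translation factors, 0 passed the threshold in DmD8, where 2 had an unadjusted p under 0.05. In Kc 2 fell, mIF2 (-0.32 ± 0.09), which starts translation, and mRF1 (-0.30 ± 0.07), which ends it. Of 6 Kc arrays mIF2 lay above 0 on 2, with values from -1.12 to 0.50, and mRF1 on 0. The list's medians were 0.10 in DmD8 and -0.08 in Kc, on the same sides of 0 as those of the ribosomal proteins.

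Of 10 mitochondrial tRNA synthetases, which load tRNAs with their amino acids, 3 rose in DmD8, where 3.08% of all features were called higher. The 3 were TyrRS-m (0.53 ± 0.12), AsnRS-m (0.36 ± 0.10) and TrpRS-m (0.35 ± 0.07), and in Kc 1 fell, ValRS-m (-0.43 ± 0.10). AsnRS-m was close to the threshold (limma adjusted p = 0.0483), with DmD8 arrays from -0.25 to 0.72. Of 11 genes of mitochondrial DNA and RNA upkeep, 2 rose in DmD8, mtDNA-helicase (0.44 ± 0.11), which unwinds the mitochondrial genome, and PolG1 (0.38 ± 0.08), the catalytic subunit of its DNA polymerase. bsf, an RNA-binding protein of the same list, fell in DmD8 (-0.46 ± 0.11), and in Kc mtTFB2 rose (0.26 ± 0.08) and mTerf3 fell (-0.24 ± 0.07).

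Of 15 tested genes of mitochondrial protein import, Roe1, a nucleotide exchange factor of the import motor, fell in both lines (-0.46 ± 0.08 in DmD8 and -0.39 ± 0.07 in Kc). blp, another part of the motor, fell in DmD8 (-0.41 ± 0.08). Hsc70-5, the mitochondrial Hsp70 that drives the motor, was read with the heat shock list. Of that list 2 of 13 fell in DmD8, Hsc70-5 (-0.44 ± 0.09) and the endoplasmic reticulum chaperone Hsc70-3 (-1.02 ± 0.08). The DmD8 arrays of Hsc70-5 did not share a sign, with 2 of 5 above 0 and values from -1.15 to 0.35. Those of Hsc70-3 were above 0 on 0 of 5. Of the heat shock list 0 passed the threshold in Kc, where 4 had an unadjusted p under 0.05. Of 61 tested genes of the respiratory chain and ATP synthase, the machinery to which the mitochondrial ribosome contributes core subunits, 0 passed the threshold in either line. At an unadjusted p under 0.05 there were 4 of 61 in DmD8 and 7 of 61 in Kc, against 19.7% and 24.6% of all features. The medians of the list were -0.06 and 0.01.

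The cytosolic ribosome translates nuclear messenger RNAs. The list of its proteins was taken by gene symbol and also holds genes such as RpL24-like, RpL7-like and RpLP0-like. Whether each gene of the list encodes a part of that ribosome was not checked. The list lay on the other side of the median in each line. Of 39, 0 passed the threshold in DmD8, where 5 had an unadjusted p under 0.05, and 3 rose in Kc, RpL27 (0.41 ± 0.09), RpL3 (0.28 ± 0.07) and RpL15 (0.23 ± 0.07). Among all features 7.1% were called higher in Kc, and 19.7% had an unadjusted p under 0.05 in DmD8. The medians of the list were -0.09 in DmD8 and 0.07 in Kc. The median difference between the lines was -0.15 for this list and 0.12 for the mitochondrial ribosomal proteins. No test between the lists was made.

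Genes of the mitochondrial ribosome that carry other names were not members. bonsai, a small-subunit protein, stood at -0.07 ± 0.11 in DmD8 and 0.20 ± 0.10 in Kc, and CG6094 at 0.06 ± 0.10 in DmD8 and -0.22 ± 0.09 in Kc, with no adjusted p under 0.05. DAP3 is a member under the symbol mRpS29, which stood at 0.11 in DmD8 and -0.13 in Kc, with no adjusted p under 0.05. tko was not found under that symbol and was not analysed here. Of the 68 members, mRpL42 had values only on Kc arrays 2 and 4, -0.62 and -0.26, and was not tested, and mRpL45 was tested on 3 arrays per line.

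**Figure D5:**
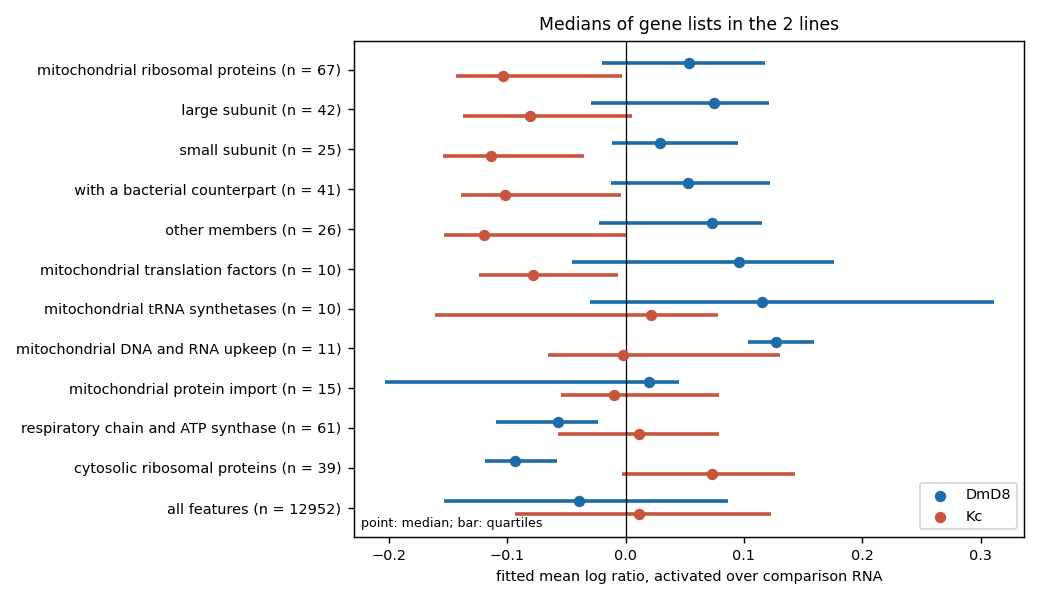
Median (point) and quartiles (bar) of the fitted mean log ratio (x axis, activated over comparison RNA) of each gene list (y axis, with the number of genes tested) in DmD8 (blue) and Kc (red). The mitochondrial ribosomal proteins have medians of 0.05 in DmD8 and -0.10 in Kc, and the cytosolic ribosomal proteins -0.09 and 0.07.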

How the data were processed

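The authors deposited 1 log ratio per probe and array, used here as log2 values as deposited; per the labels' protocols, RNA was extracted with Trizol, copied from oligo-dT primers, labelled with Cy3 or Cy5, and the spots were quantified with Dapple. For background correction, normalization, log base and ratio direction, no source used here gives the authors' choice. The members and gene lists were chosen with earlier results of these data known. Probes of 1 gene were averaged, and probes with several symbols left out. All 68 members matched the RefSeq table of gene names, with 0 symbols changed. A feature was tested with at least 3 values and both dye orientations per line. A mean and a dye term per line were fitted to 12952 features (8841 named) with limma 3.58.1 in R 4.3.3 and tested against 0, with Benjamini-Hochberg adjustment over all features and a threshold of 0.05. Precision is limited by how many arrays there are. The fit was tested on simulated data. Named are members past the threshold, the 5 highest and 5 lowest in each line, members close to the rule for testing, and in each other list at most the 3 highest and 3 lowest past the threshold, besides bonsai, CG6094, tko, DAP3 and E(spl)m3-HLH. A few others are named as examples, chosen after their values were seen: the members whose dye term passed in both lines and the cell type markers. Alternatives covered centring, the sign of swaps, missing values, probe choice, the dye term, orientation, left-out arrays, swaps averaged with replicates, and a replicate block.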

Additional observations from a re-analysis of the deposited data

Results flagged for a closer look

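The response differed between the lines, by the test of the difference itself (DmD8 minus Kc, limma adjusted p under 0.05 over all features), for 5 mitochondrial ribosomal protein genes: by 0.48 for mRpL20, 0.45 for mRpL9, 0.43 for mRpL10, -0.54 for mRpL28 and -0.36 for mRpS9. They are 7.46% of 67 members, against 10.9% of all features. The comparison RNA of DmD8 is unsettled, so the lines may differ in it too, which cannot be told apart. No array stood far from the others of its line and value in the 44 groups of values examined.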

How the results depend on the processing

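In each case below the cause was not tested. Calls among the members in DmD8, Kc and the difference numbered 6, 1 and 9 with each array centred on its median, which also moved the DmD8 median to 0.10. They numbered 12, 12 and 0 with the sign of the dye swaps turned (1 difference at an unadjusted p under 0.05). Of all 12952 features 0 differences were called there, so this 0 is not particular to the members. Without a dye term the members' calls were 1, 0 and 0 (5 and 8 at that p in Kc and the difference). Of 12952 features, 176 were then higher and 280 lower in DmD8, 414 and 241 in Kc, and 163 and 342 in the difference. On arrays with activated RNA in Cy5 alone the members' calls were 3, 4 and 0 (7 differences at that p). There, of 12254 features, 312 were higher and 503 lower in DmD8, 929 and 1100 in Kc, and 63 and 125 in the difference. Without Kc arrays 2 and 5 the members' calls were 3, 0 and 1. Of 12473 features, 316 were then higher and 446 lower in DmD8, 537 and 281 in Kc, and 285 and 563 in the difference. With swaps averaged with a replicate, 0 calls in any comparison held over all 36 pairings. Of 12952 features, 16 higher and 48 lower calls held in DmD8, 147 and 91 in Kc, and 14 and 86 in the difference. The replicate numbers did not pair the arrays (correlations of same-numbered deviations -0.30 to 0.12 from the mean of each dye orientation; 0.26 to 0.53 from the line mean, which holds the shared dye orientation). The replicate block gave 0 called differences among the members, with 12 at an unadjusted p under 0.05. Of all 12952 features, 172 differences were then called higher and 367 lower. Leaving out 1 array gave 1 to 4 calls in DmD8, 0 to 2 in Kc and 0 to 5 in the difference, with medians of 0.05 to 0.06 and -0.13 to -0.06. Kc calls were 0 without DmD8 array 3 or Kc array 1, 4 or 5. DmD8 calls were 4 without Kc array 2 and 1 without any 1 DmD8 array or Kc array 5. Differences were 0 without DmD8 array 5, 1 without Kc array 5, 2 without DmD8 array 2 or Kc array 2 or 4, and 3 without DmD8 array 1, 3 or 4 or Kc array 1 or 6. Turning the swaps reversed the Kc median (0.0048) and these values: in DmD8 mRpL18 (0.37), mRpS35 (-0.29), mRpS9 (0.38) and E(spl)m3-HLH (-0.41), in Kc E(spl)m3-HLH (-0.062) and CG6094 (0.49), and in the difference mRpL10 (-0.042), mRpL20 (-0.094), mRpL28 (0.10), mRpL9 (-0.0072) and mRpS9 (0.17).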

Other observations

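Of the 68 members, 39 overlap another gene in RefSeq's annotation, and 0 lie next to another member. Whether the probes of these pairs share sequence was not tested. Among the genes called in a line or in the difference, mRpL28 overlaps Gmd (-0.07 in DmD8 and -0.12 in Kc), mRpL9 overlaps Fkbp39 (0.10 and 0.07), mRpL10 overlaps CG11617 (-0.12 and 0.0075), mRpL41 overlaps CG11808 (0.14 and -0.18), and mRpS9 overlaps ArgRS-m (0.20 and -0.19) and wtrw (-0.19 and 0.24). None of these 6 overlapping genes passed the limma threshold in either line or in the difference.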
